A study of Homo sapiens with 18 samples.

Results

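Noncoding transcripts that lie opposite the exons of a protein-coding gene were followed in extracellular vesicles (EVs), the small membrane-bound particles that cells release, and in the cells that released them. A transcript row was taken as a member where its gene is not of the protein_coding type in GENCODE 29, its spliced length is at least 200 nt, at least 80% of its exonic bases lie opposite exons of 1 protein-coding gene, and less than 80% lie on the same strand as exons of another coding gene. Members were chosen with earlier results of these data known, and 7 genes were left out by name. The overlap rule itself used the annotation alone and no measured value. It gave 741 members of 661 genes, opposite 643 coding genes, out of 203027 transcript rows in the table and 46220 noncoding rows of at least 200 nt. The coding gene opposite a member is called its partner.

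The RNA came from HEK293T, an established human embryonic kidney line. There were 3 libraries in each of 6 groups: EVs of wild-type, ATG7-/- (clone F2) and ATG12-/- (clone D9) cells, and the cells themselves in the same 3 genotypes. All groups, wild type included, had been kept without serum for 24 h, and each knockout is 1 clone, so genotype and clone cannot be told apart. ATG7 and ATG12 belong to the machinery that attaches LC3, a ubiquitin-like protein, to membrane lipid, and the study asked whether EV RNA differs without it. Total RNA was turned into libraries with a kit that marks strand, amplified for 22 cycles and read as single 50-base reads, and the values are TPM, a share of the library that is corrected for transcript length.

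Transcripts from the strand opposite a gene are known as natural antisense transcripts. Their bases are complementary to the mature mRNA of the partner, so the RNAs can pair, and single antisense RNAs are known to act on transcription, splicing, stability or translation of their partner, while most have no known role. Within the overlap, reads of such a pair that cross no splice junction differ only in strand. The measured level of either RNA thus depends on how strand was assigned.

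The stretches below were chosen to show this complementarity, and belong to members on which later results turn. Each is the member's own strand in GENCODE 29, 5′ to 3′, opposite coding sequence of the partner. Bases in lower case belong to the first exon of the member and capitals to the second exon, so a change of case is a splice junction.
TAB3-AS2 (opposite TAB3, chrX:30854321-30854375 and chrX:30854471-30854575, plus strand, GRCh38): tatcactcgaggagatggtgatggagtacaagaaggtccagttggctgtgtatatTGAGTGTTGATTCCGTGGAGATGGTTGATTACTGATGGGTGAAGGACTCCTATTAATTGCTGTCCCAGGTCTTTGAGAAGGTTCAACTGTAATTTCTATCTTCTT
AC027682.3 (opposite RIPOR1, chr16:67542491-67542570 and chr16:67542349-67542428, minus strand, GRCh38): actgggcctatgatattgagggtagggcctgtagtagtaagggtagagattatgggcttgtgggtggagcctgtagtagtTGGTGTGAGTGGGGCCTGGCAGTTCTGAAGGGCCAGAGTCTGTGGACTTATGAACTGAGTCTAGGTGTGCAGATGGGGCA
AC008878.4 (opposite ZNF358, chr19:7520307-7520386 and chr19:7519975-7520054, minus strand, GRCh38): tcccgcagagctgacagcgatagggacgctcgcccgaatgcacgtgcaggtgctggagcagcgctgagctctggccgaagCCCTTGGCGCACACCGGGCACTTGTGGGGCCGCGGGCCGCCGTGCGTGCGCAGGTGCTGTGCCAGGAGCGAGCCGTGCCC
AC009133.2 (opposite MAZ, chr16:29807516-29807675, minus strand, GRCh38): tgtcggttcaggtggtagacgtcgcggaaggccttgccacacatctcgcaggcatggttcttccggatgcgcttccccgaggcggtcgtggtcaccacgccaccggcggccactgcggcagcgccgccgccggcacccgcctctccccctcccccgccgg
AL355075.3 (opposite PNP, chr14:20474789-20474948, minus strand, GRCh38): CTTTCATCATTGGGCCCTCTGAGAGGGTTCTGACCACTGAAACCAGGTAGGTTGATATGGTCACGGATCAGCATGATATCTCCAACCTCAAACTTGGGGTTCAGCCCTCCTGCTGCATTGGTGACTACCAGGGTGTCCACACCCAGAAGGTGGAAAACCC

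In TAB3-AS2, AC027682.3 and AC008878.4 both sides of the junction lay opposite coding sequence, so a read across it would join bases that are apart in the partner's mRNA. Of the members, 161 had 1 exon, 491 had 2 and 89 had 3 or more. Of their 729 introns, 406, in 374 members, lay inside 1 exon of the partner. These inner introns were 2 to 6982 nt long (median 363), 279 had GT-AG ends, 110 GC-AG ends and 17 other ends. None had the CT-AC ends that a partner intron read backwards would show. An inner intron can be a partner intron only where another partner transcript splices it out, so no conclusion is drawn from this. Repeats at the inner introns were counted too. The same letters, at least 8 nt of them, stood at both ends of 36 of these introns, and at least 4 nt at those of 202.

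By annotated type, 581 members were antisense, 49 lincRNA, 31 processed pseudogenes, 28 TEC (regions awaiting experimental support) and 21 processed transcripts, and the rest fell into small classes. Spliced lengths ran from 201 to 7065 nt (median 547). All exonic bases lay opposite the partner's exons in 471 members. In 392 members no base lay opposite coding sequence, so that they faced only noncoding exon stretches of the partner, and in 74 members at least 80% of bases faced coding sequence. Over all members the median share of 50-nt windows, the read length, that were complementary to partner mRNA was 89.95%. A window on the same strand was shared with another gene in 114 members, and 29 members shared at least 20% of their windows, so reads from these cannot be placed with certainty.

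Members were detected more often than other noncoding transcripts. Of the 741, 579 reached 1 TPM or more in 3 or more of the 18 libraries, which is the filter of the tests, 162 did not, 87 were listed at 0 in every library and 239 were above 0 in all 18. The share that reached the filter rose with the overlap: 21.8% of 39902 noncoding rows with no base opposite a coding exon, 45.3% of 2566 with above 0 to 20%, 57.1% of 2221 with 20 to 50%, 69.2% of 778 with 50 to 80%, and 78.1% of the members. A mean of at least 10 TPM was found in 3.31% of rows without overlap and in 51.7% of the members, and the median level was 0 TPM in EVs and 0 in cells without overlap and 8.08 and 13.1 TPM in the members. The step held within length classes: between 200 and 300 nt, 21.6% of rows without overlap and 77.0% of members passed the filter, and at 800 nt or more 23.4% and 79.1%. At the edge of the rule, the 20 members just inside it (80.1% to 81.3% opposite) had a median of 0.795 TPM and a highest mean of 176 TPM, and the 20 rows just outside it (78.2% to 79.9%) 4.49 and 169 TPM.

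**Figure D1:**
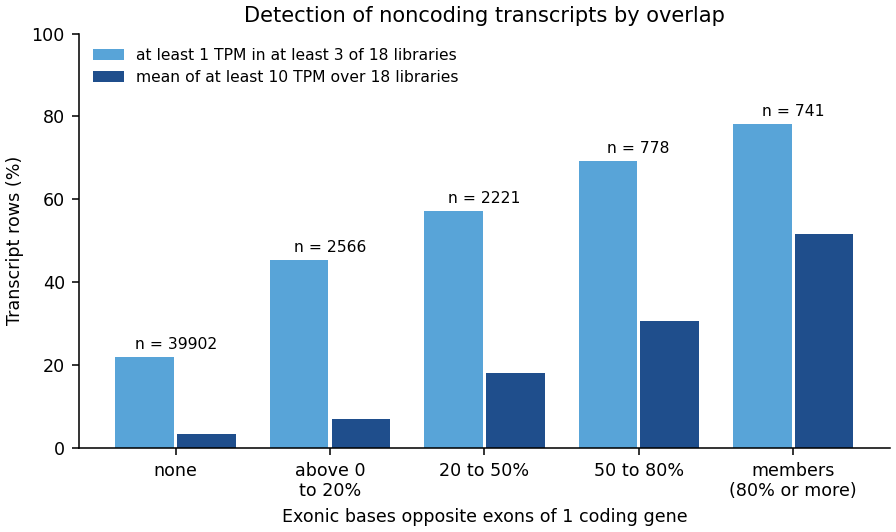
Share of noncoding transcript rows (percent, vertical axis) by the share of exonic bases opposite exons of 1 coding gene (horizontal axis). Light bars give rows that reach 1 TPM or more in 3 or more libraries and dark bars rows with a mean of at least 10 TPM, and both rise from left to right, from 21.8% to 78.1% and from 3.31% to 51.7%.

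Together the members made up 4.09% to 5.12% of each EV library's TPM (median 4.44%) and 3.37% to 4.78% of each cell library's (median 4.24%). By group the share was 4.30% ± 0.27 in wild-type EVs, 4.86% ± 0.26 in ATG7-/- EVs and 4.31% ± 0.13 in ATG12-/- EVs. In cells it was 3.48% ± 0.12 in wild type, 4.43% ± 0.33 in ATG7-/- and 4.36% ± 0.14 in ATG12-/- (SD, n = 3 in each group). At 1 TPM or more stood 378 to 441 members in the EV libraries and 510 to 542 in the cell libraries. Of the members, 566 were above 0 in at least 1 EV and 1 cell library, 83 only in cells, and 5 only in EVs. The depth of the libraries is unknown, since TPM keep none, and EV libraries had fewer rows above 0 over the whole table (24209 to 31213, against 37301 to 49040 in cells). The part of depth in these counts was not tested.

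The partners held less. All partner genes together summed to 1.25% to 1.59% of the EV libraries and to 0.913% to 1.09% of the cell libraries. Among the 654 members above 0 anywhere, the member was above its partner's summed level in 389 in EVs and in 464 in cells, and over 10 times the partner in 125 and 180. The median difference, member minus partner on the log2(TPM + 1) scale, was 0.68 in EVs and 1.30 in cells. Across these 654 pairs, which share libraries and genome regions, Pearson's r of the log2 levels was 0.39 in EVs and 0.32 in cells, and Spearman's rho 0.38 and 0.31. The strand setting behind the values is not given in the sources used here. Whether a high member beside a low partner is RNA of the annotated strand, or reads of the partner's mRNA placed on the other strand, cannot be told apart in this table. This holds for every member and partner value given here, the detection by overlap and the library shares above included.

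**Figure D2:**
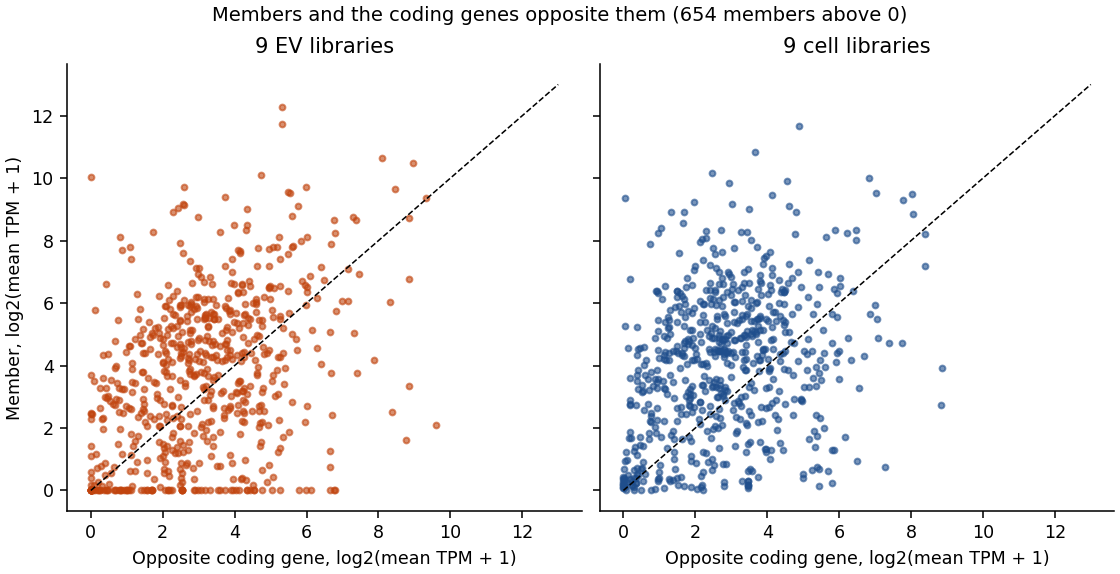
Level of each of the 654 members above 0 (vertical axis, log2 of mean TPM + 1) against the summed level of the coding gene opposite it (horizontal axis, same scale), over 9 EV libraries (left) and 9 cell libraries (right). Each point is a member and the dashed line marks equal levels, above which lie 389 members in EVs and 464 in cells.

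The facts of the whole table that bear on these values were as follows. The targeted genes gave no clear check of the labels: ATG7 had 11.2 to 20.8 TPM over the EV libraries and 8.06 to 17.1 over the cell libraries of all genotypes, and ATG12 0 to 22.6 and 5.18 to 16.5, with ranges of knockout and wild type that overlapped in cells. In EVs ATG12 had 0, 0.858 and 0 TPM in ATG12-/-, against 0.844, 9.54 and 22.6 in wild type and 12.2, 4.65 and 0.326 in ATG7-/-. These ranges also overlapped. Of the genes looked up for the labelled line, the keratin KRT8 had 62.9 to 162 TPM in cells. The intermediate filament gene VIM had 12.1 to 29.9 there, NEFM 0.198 to 14.5 and CDH2 0.954 to 3.12. In cells KRT18 stayed at or below 4.65 and the kidney factor PAX2 at or below 3.44. The blood and liver genes HBB, CD3E and ALB were listed at 0 in all 18 libraries. The blood gene PTPRC, however, had 0.489 to 2.597 TPM in cells and up to 5.79 in EVs, and the liver gene APOA1 reached 1.58 in cells. The fibroblast genes COL1A1 and DCN had 2.22 to 17.8 and 3.003 to 11.99 TPM in cells, with highest values above those of KRT18 and PAX2. These genes thus gave no clear check of the line. Protein-coding genes took 35.3% to 39.3% of EV TPM and 21.6% to 25.8% of cell TPM. No pair of libraries held identical values. In bulk RNA, fewer cells with a transcript and less of it per cell cannot be told apart, nor can a larger number of vesicles with it and more of it per vesicle.

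The 12 most abundant members, 1 per gene, held 33.4% to 41.3% of all member TPM in EV libraries and 27.5% to 34.4% in cell libraries. First came AC005841.1 (chr12:2797136-2803938, minus strand, 287 nt in 2 exons), which lies opposite FKBP4, the gene of a co-chaperone of steroid receptors. It had 2037 to 4934 TPM (median 3497) in EVs and 1653 to 4959 TPM (median 3619) in cells, while FKBP4 itself had 22.1 to 76.7 TPM (median 34.0) and 11.8 to 102 TPM (median 19.1). The second, AF111169.3 (chr14:76780708-76781456, minus strand, 262 nt in 2 exons), lies opposite noncoding exon bases of VASH1, which encodes vasohibin 1, an enzyme that trims tubulin and an inhibitor of vessel growth. It had 2004 to 7230.3 TPM (median 5474) in EVs and 167 to 405 TPM (median 249) in cells, against 24.7 to 59.1 TPM (median 36.9) and 2.52 to 5.34 TPM (median 3.74) for VASH1. The third, RF00017, is a copy of the signal recognition particle RNA family within PSMD9, the gene of a proteasome assembly factor. It had 132 to 1186 TPM (median 467) in EVs and 1475 to 2418 TPM (median 1819.9) in cells. Since 17.9% of its windows also occur in transcripts of other genes, its value is uncertain.

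AC125611.3 (chr12:49265156-49273306, minus strand, 680 nt) faced the coding sequence of TUBA1C, an alpha-tubulin gene, with 94.1% of its bases. It had 1200.1 to 1798 TPM (median 1619) in EVs and 463 to 1006 TPM (median 809.6) in cells, and TUBA1C had 235 to 318 TPM (median 276) and 75.8 to 170.4 TPM (median 133). Tubulin genes are near-copies of each other, and 20.6% of its windows occur on the same strand in AC011603.2 and 23.3% are complementary to other tubulin genes, so its reads may belong to them. AC009133.2 (chr16:29806496-29807732, minus strand, 547 nt), of which part of the first exon is shown above, faced MAZ, a zinc finger transcription factor. It had 1219 to 1973 TPM (median 1300.1) in EVs and 491 to 781 TPM (median 681) in cells, and MAZ 328 to 695 TPM (median 507) and 161 to 273 TPM (median 229). For MAZ and TUBA1C member and partner were thus both abundant and both at their higher levels in EVs. AC023946.1 (chr11:11352426-11353307, plus strand) faced CSNK2A3, an intronless copy of a casein kinase 2 gene, and had 843 to 1243 TPM (median 1048) in EVs and 486 to 907 TPM (median 565) in cells. CSNK2A3 was listed at 0 in every library but 1, and 62.6% of the member's windows were complementary to the parent gene CSNK2A1.

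The other 6 of the 12 lay between 54.3 and 1611 TPM in single libraries. AC018761.2 (opposite PRDX2, a peroxidase) and AC034102.4 (opposite PA2G4, a growth regulator) had EV medians of 758 and 865 TPM and cell medians of 685 and 550.2. AC087521.4 (opposite HSD17B12, an enzyme of fatty acid elongation), AC092069.1 (opposite CALR, a chaperone of the endoplasmic reticulum) and AC004824.1 (opposite RCC2, a regulator of mitosis) had medians of 469, 372 and 449.7 TPM over the EV libraries, with 1127, 990.0 and 929.6 in cells. AC027682.3, whose junction is shown above and which faces RIPOR1, an inhibitor of RhoA, was uneven. It had 199, 689.9 and 543 TPM in wild-type cells, 1401, 1436 and 1524 in ATG7-/- cells and 203, 273 and 100.05 in ATG12-/- cells. In EVs it had 757, 539 and 594 TPM in wild type, 1049, 924 and 1374 in ATG7-/- and 170.1, 54.3 and 1327 in ATG12-/-. The ATG7-/- cell libraries lay above all other cell libraries, and the ATG12-/- EV libraries spanned nearly the whole EV range, with 1 of 3 near the ATG7-/- level. It did not pass the test in either knockout in cells (ATG7-/- log2 difference 1.89, SE 0.52, adjusted p = 0.231; ATG12-/- log2 difference -1.16, SE 0.52, adjusted p = 0.443).

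**Figure D3:**
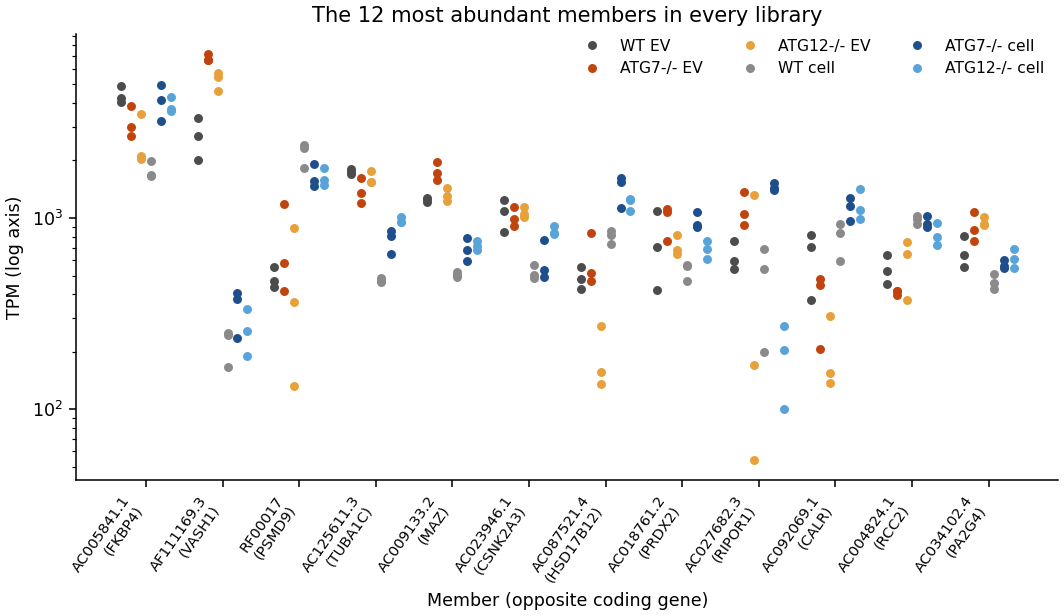
TPM (vertical log axis) of the 12 most abundant members in each of the 18 libraries, with the coding gene opposite each in brackets. Each point is 1 library and colours mark the 6 groups. AF111169.3 has EV libraries at 2004 TPM and above and cell libraries at 405 TPM and below, and RF00017 has the cell libraries above the EV libraries.

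Members with a curated antisense name were fewer and lower: the 92 such members had median levels of 0.534 TPM in EVs and 1.96 in cells. The most abundant was TAB3-AS2, whose first exon and junction are shown above. It faces TAB3, an adaptor of the kinase TAK1, and had 137 to 666 TPM (median 526) in EVs and 482 to 859 TPM (median 558) in cells, with TAB3 at 0.933 to 13.6 TPM (median 2.79) and 2.28 to 3.68 TPM (median 3.06). DDIT4-AS1, opposite the stress-induced mTORC1 inhibitor DDIT4, had 497 to 969.9 TPM (median 711) in EVs and 264 to 390.1 TPM (median 302) in cells. OCIAD1-AS1, MDC1-AS1 (opposite a scaffold of the DNA damage response), EDRF1-AS1 and RPS6KB2-AS1 (opposite the gene of S6 kinase 2) followed, with medians of 231, 294, 156 and 214 TPM over the EV libraries, with 524, 271, 179.6 and 106 in cells. In each of these 6 the member lay above its partner in the mean over EVs and over cells.

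EVs were compared with cells over the 3 genotypes. On the log2(scaled TPM + 1) scale, on which differences are given from here on and which understates the change of low members, 32 of the 579 members tested rose in EVs, where 5.23% of all transcripts tested did (5.53% of the members). Another 199 were lower in EVs, where 26.0% of all transcripts were (34.4% of the members), and 53 of these 199 reached 1 TPM in fewer than 3 EV libraries, so that they passed the filter through the cells. The members' median difference was -0.78 and that of all 49499 transcripts tested -0.40, while the 8716 noncoding transcripts tested with no base opposite a coding exon had -0.95, with 46.0% lower. Among transcripts with a mean of at least 10 TPM the medians were -0.63 for 382 members, 0.14 for 3353 transcripts of coding genes and -2.06 for 1287 noncoding transcripts without overlap. By these medians the members lay between coding transcripts and noncoding transcripts without overlap. The neighbouring classes at this level did so too, and lay nearer to coding transcripts than the members. The median was -0.49 for 399 noncoding transcripts with 20 to 50% of bases opposite and -0.50 for 238 with 50 to 80%.

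The 2 members with the largest rise in EVs were also far above their partners. AF111169.3, opposite VASH1, had 2004 TPM or more in every EV library and 405 TPM or less in every cell library, without overlap, and was 15.7-fold higher in EVs (log2 difference 3.97, SE 0.15, adjusted p = 1.87e-10). VASH1 also had its levels without overlap, at 24.7 TPM or more in EVs and 5.34 or less in cells. AC025262.3 (chr12:64696191-64696550, minus strand, 360 nt, 1 exon) lies opposite noncoding exon bases of RASSF3, a Ras-association domain gene. It had 595 to 1435 TPM (median 1163) in EVs and 69.5 to 109.7 TPM (median 74.6) in cells, and was 11.7-fold higher in EVs (log2 difference 3.54, SE 0.13, adjusted p = 9.64e-11). RASSF3 had 14.7 to 45.5 TPM (median 23.6) in EVs and 0 to 3.10 TPM (median 0.659) in cells. In both pairs the member and the coding gene stood higher in EVs.

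The next members by size of rise were lower in level. AC008878.4, shown above, lies wholly opposite coding sequence of the zinc finger gene ZNF358. It had 183, 467 and 119.7 TPM in wild-type EVs, 339, 316 and 341 in ATG7-/- EVs and 285, 303 and 445 in ATG12-/- EVs, and 31.0 to 93.1 TPM (median 54.0) in cells (log2 difference 2.25, SE 0.26, adjusted p = 2.57e-05). ZNF358 itself had 0.884 to 21.3 TPM (median 12.3) in EVs and 0 to 3.48 TPM (median 1.92) in cells. AC020909.2, opposite EMC10, a subunit of a complex that inserts membrane proteins, had 18.7 to 84.5 TPM (median 41.2) in EVs and 1.24 to 10.8 TPM (median 5.67) in cells (log2 difference 2.73, SE 0.30, adjusted p = 1.42e-05). AC112211.1, opposite CRTAP, a gene of collagen modification, and AC003101.3, opposite RAB11FIP4, a Rab11 effector of vesicle recycling, had EV medians of 555 and 110.1 TPM and cell medians of 113 and 28.3. Their log2 differences were 1.96 (SE 0.28, adjusted p = 0.000161) and 1.74 (SE 0.19, adjusted p = 1.52e-05). In these 4 the EV and cell libraries did not overlap.

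Of the 12 most abundant members, 5 rose in EVs and 4 fell. Besides AF111169.3, AC009133.2 opposite MAZ (log2 difference 1.04, SE 0.08, adjusted p = 2.82e-07) and AC125611.3 opposite TUBA1C (log2 difference 1.01, SE 0.08, adjusted p = 3.65e-07) rose about equally. AC023946.1 (0.56, adjusted p = 0.00138) and AC034102.4 (0.45, adjusted p = 0.00414) rose by less. RF00017 (-2.04), AC087521.4 (-1.71), AC092069.1 (-1.70) and AC004824.1 (-1.02) fell. AC005841.1 (-0.04, adjusted p = 0.812), AC018761.2 (0.01, adjusted p = 0.982) and AC027682.3 (0.04, adjusted p = 0.954) did not pass, and the sign of these differences changes with the setting. Among the curated names DDIT4-AS1 (log2 difference 1.06, SE 0.11, adjusted p = 1.02e-05) and RPS6KB2-AS1 (log2 difference 0.79, SE 0.23, adjusted p = 0.0157) rose and OCIAD1-AS1 (log2 difference -1.28, SE 0.33, adjusted p = 0.00878) fell, while TAB3-AS2 (-0.53, adjusted p = 0.0822), EDRF1-AS1 (-0.42, adjusted p = 0.235) and MDC1-AS1 (0.15, adjusted p = 0.306) did not pass.

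Of the members with the largest fall, the 5 given here were listed at 0 in most EV libraries, so all but AC010503.2 passed the filter through the cells alone, and the levels of the 5 are given without a test. AC090181.1, a lincRNA opposite noncoding exon bases of TSPAN3, a tetraspanin, was listed at 0 in 8 EV libraries and had 27.4 TPM in 1 of ATG7-/-, and it had 26.7 to 59.95 TPM (median 43.7) in cells. TSPAN3 went the other way in level, with 10.8 to 46.2 TPM (median 22.2) in EVs and 5.11 to 17.7 TPM (median 11.5) in cells. AC009238.3 (opposite FAHD2A) was listed at 0 in 7 of 9 EV libraries, with at most 35.9 TPM in the others, and had 0 to 139.7 TPM (median 86.9) in cells. AP001178.2 (opposite ENOSF1) was listed at 0 in 8 EV libraries, with 33.2 TPM in the other, and had 6.08 to 77.4 TPM (median 29.6) in cells. AC113208.3 (opposite C15orf39) was likewise listed at 0 in 8 EV libraries, but the other had 175 TPM, above its 0 to 147 TPM (median 67.1) in cells, where 2 libraries were at 0. In each of these 3 members the EV and cell libraries overlapped. AC010503.2 faced TUBB4A, a beta-tubulin gene, and was listed at 0 in 6 EV libraries, with at most 27.4 TPM in the others, and had 0 to 165 TPM (median 105) in cells.

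**Figure D4:**
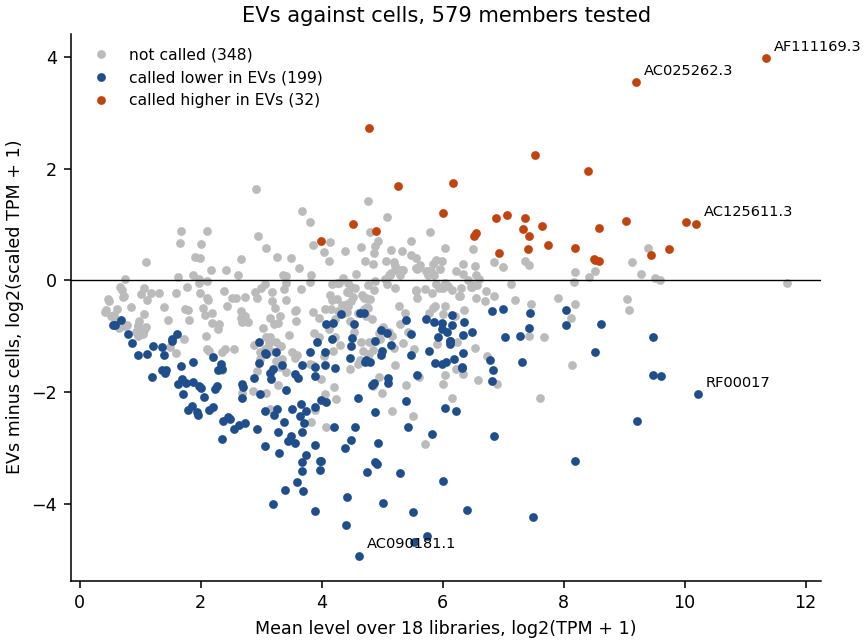
Difference between EVs and cells (vertical axis, log2 of scaled TPM + 1, mean over 3 genotypes) against mean level over 18 libraries (horizontal axis, log2 of TPM + 1) for the 579 members tested. Each point is a member, with the 32 called higher in EVs in red, the 199 called lower in blue and the 348 not called in grey. AF111169.3 and AC025262.3 lie apart at the top.

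Counts are given by class as a description, beside the shares of all transcripts above. They include members that reached 1 TPM in fewer than 3 EV libraries, 110 of the 579 tested and 53 of the 199 called lower. Such members passed the filter through the cells and could hardly be other than lower. Their number in each class is not given, so the classes are not compared. Of 39 tested members with at least 80% of bases opposite coding sequence, 5 were called higher in EVs and 1 lower (median -0.15). Of 217 with some but under 80%, 13 were higher and 52 lower (median -0.46), and of 323 with no base opposite coding sequence 14 were higher and 146 lower (median -1.05). Of 39 tested members of pseudogene types 0 were higher and 22 lower (median -1.34). By length, 3 of 47 tested members under 300 nt were higher and 16 lower, and 1 of 82 of 1000 nt or more was higher and 40 lower. Members with an intron inside 1 partner exon (18 higher and 107 lower of 293) and spliced members without one (9 and 42 of 158) had near-equal medians (-0.78 and -0.80).

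By the family of the partner, 27 members lay opposite zinc finger genes, and of 23 tested 1 rose in EVs (AC008878.4) and 8 fell, where 26.0% of all transcripts and 34.4% of the members tested fell. All 3 members opposite genes of the proteasome group fell: RF00017 (PSMD9, log2 difference -2.04), PSMD6-AS1 (PSMD6, -1.43) and AC010132.2 (PSMA2, -2.40). Of 3 members opposite tubulin genes AC125611.3 (TUBA1C) rose and 1 of the pair opposite TUBB4A fell. The other of that pair, AC010503.2, is given above without a test. Of 3 tested members opposite genes of the respiratory chain and ATP synthase 0 rose and 1 fell. The pattern for ribosomal proteins matched only RPS6KB2, a kinase, and 3 of the 4 members found for translation factors faced EEF2K, also a kinase, so neither list describes what its name says. No member faced an hnRNP, a splicing factor or a HOX gene of the lists.

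Partners were read in the same way from sums over each gene. Among 549 members tested together with their partner, 67 members had a partner called higher in EVs (12.2%, against 11.7% of all 13998 coding genes tested as sums) and 105 a partner called lower (19.1%, against 24.2%). The joint counts that follow are a description and were not tested against these shares. Members called lower again include some that passed the filter through the cells. Both were called higher in 19 pairs and both lower in 49, the member was lower and its partner higher in 16, and the member was higher and its partner lower in 0. The partner's difference was above 0 for 27 of the 31 members called higher and for 76 of the 193 called lower. Across the 549 pairs, which share libraries, Pearson's r of the differences was 0.24 (Spearman's rho 0.24), and 333 had the same sign. Across the 158 pairs whose members had at least 50 TPM it was 0.46 (rho 0.45), and 89 had the same sign.

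The question of the study, whether EV RNA depends on ATG7 or ATG12, was asked of the members next. In ATG7-/- EVs against wild-type EVs, 1 of 469 members tested was called, higher, where 0.215% of all 26464 transcripts tested were called and 0.121% were called higher. This was AF111169.3, with 3341, 2689.7 and 2004 TPM in wild-type EVs and 6731, 6740.2 and 7230.3 in ATG7-/- EVs, groups that did not overlap (2.68-fold, log2 difference 1.42, SE 0.17, adjusted p = 0.0188). The call was lost without replicate 2 of wild type and without each ATG7-/- replicate in turn. In ATG12-/- EVs it had 4605, 5730.2 and 5474 TPM, also above all wild-type EVs, and did not pass (log2 difference 1.01, SE 0.17, adjusted p = 0.0549). In cells it had 249, 244 and 167 TPM in wild type, 377, 236 and 405 in ATG7-/- and 255, 332 and 188 in ATG12-/-, with ranges that overlapped. VASH1 had 35.0, 36.9 and 43.4 TPM in wild-type EVs and 42.9, 41.8 and 59.1 in ATG7-/- EVs, which overlapped. The members' median difference in ATG7-/- EVs was 0.22, against -0.01 for all transcripts, and 292 of 469 lay above 0 (62.3%, against 49.3% of all). Among transcripts of at least 10 TPM the median was 0.16 for 363 members and 0.09 for all, with 60.6% and 53.5% above 0. Noncoding transcripts of this level with 20 to 50% of bases opposite had 0.20, and those with 50 to 80% had 0.14. These neighbouring classes thus lay near the members.

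In ATG12-/- EVs 0 of 469 members were called with limma, where 0.302% of all transcripts were. At an unadjusted p under 0.05 there were 46 (9.81%, against 7.11% of all), and limma with array weights and no trend also called 0. At 10 TPM or more the members had no such excess: 5.79% were higher and 4.96% lower, against 6.12% and 5.27% of all transcripts of this level. Over all tested, the members' median difference was 0.01, against -0.09 for all transcripts. Beside AF111169.3, the smallest p at 5 TPM or more was that of AC046130.1 (chr12:34022281-34046417, minus strand, 2179 nt), opposite ALG10, a glucosyltransferase of protein glycosylation. It had 12.49, 8.78 and 7.29 TPM in wild-type EVs and 0.949, 0.303 and 0 in ATG12-/- EVs (log2 difference -2.86, SE 0.65, adjusted p = 0.172), while ALG10 was listed at 0 in all EV libraries. Both knockout comparisons share the wild-type EV libraries. The members' median SE was 0.87 in EVs and 0.35 in cells. That of AF111169.3 was smaller in EVs than in cells (ATG7-/-, SE 0.17 and 0.30).

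In ATG7-/- cells 5 of 566 members were called, all higher, where 0.362% of all 36749 transcripts were called and 0.182% were called higher. AL592078.1, opposite noncoding exon bases of CHRNB2, a nicotinic receptor subunit, was listed at 0 in the wild-type and ATG12-/- cells and had 4.98, 6.49 and 10.3 TPM in ATG7-/- cells. It passed the filter on low values only through the ATG7-/- libraries and so had to differ, and its values are given without a test, which leaves 4 calls. In EVs it was listed at 0 in 8 libraries and had 20.5 TPM in 1 of ATG7-/-. AL807752.3 (chr9:137063535-137064581, plus strand, 748 nt) lies opposite SAPCD2, a gene of spindle orientation and cell polarity. It had 4.29, 7.44 and 9.37 TPM in wild-type cells, 34.5, 32.9 and 32.9 in ATG7-/- cells and 23.8, 18.2 and 19.4 in ATG12-/- cells, so that both knockouts lay above wild type without overlap (ATG7-/- log2 difference 2.24, SE 0.29, adjusted p = 0.0283; ATG12-/- log2 difference 1.54, SE 0.29, adjusted p = 0.102). In EVs it had 27.9, 27.5 and 19.6 TPM in wild type, 54.4, 44.2 and 59.3 in ATG7-/- and 34.5, 29.3 and 37.1 in ATG12-/-, and the EV difference in ATG7-/- did not pass (log2 difference 1.08, SE 0.42, adjusted p = 0.654).

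AC005841.1, opposite FKBP4, rose from 1669.5, 1653 and 1982 TPM in wild-type cells to 3230.5, 4959 and 4119.5 in ATG7-/- cells (log2 difference 1.30, SE 0.17, adjusted p = 0.0292). AC120114.2, opposite CDIPT, the phosphatidylinositol synthase gene, rose from 64.6, 71.2 and 89.5 to 151, 189 and 208 TPM (log2 difference 1.37, SE 0.21, adjusted p = 0.0457). AC114947.2, opposite HMGCS1, an enzyme of cholesterol synthesis, rose from 128, 104 and 148 to 237, 310.1 and 262 TPM (log2 difference 1.20, SE 0.18, adjusted p = 0.0457). The groups did not overlap in any of these. Their partners lay lower and overlapped: FKBP4 had 102, 14.9 and 11.8 TPM in wild-type and 20.7, 18.3 and 29.7 in ATG7-/- cells, CDIPT 27.5, 48.2 and 43.8 and 33.6, 93.8 and 55.3, and HMGCS1 2.53, 7.54 and 2.90 and 2.68, 4.67 and 11.8. Each of the 4 lost its call in at least 5 of the 6 fits with 1 library of the compared groups left out. Counting AL592078.1, between 0 and 6 members were then called, 0 without replicate 2 or 3 of ATG7-/- cells, 1 without replicate 2 or 3 of wild-type cells and 2 without replicate 1 of them.

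In ATG12-/- cells 1 of 566 members was called, higher, where 0.21% of all transcripts were called and 0.128% were called higher. AC125611.3, opposite TUBA1C, rose from 463, 483 and 470.4 TPM in wild-type cells to 957, 1006 and 956 in ATG12-/- cells (log2 difference 1.13, SE 0.15, adjusted p = 0.0334), and had 651, 852 and 809.6 in ATG7-/- cells, also above all wild-type libraries (log2 difference 0.80, SE 0.15, adjusted p = 0.0857). TUBA1C had 90.1, 79.0 and 75.8 TPM in wild-type, 133, 130.4 and 164 in ATG7-/- and 162, 157 and 170.4 in ATG12-/- cells, in the same order and without overlap with wild type. In EVs the member had 1699, 1733 and 1798 TPM in wild type and 1767, 1550.1 and 1543 in ATG12-/-, which overlapped. The call was lost, with adjusted p of 0.0552 to 0.179, when any library of the wild-type or ATG12-/- cells was left out.

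**Figure D5:**
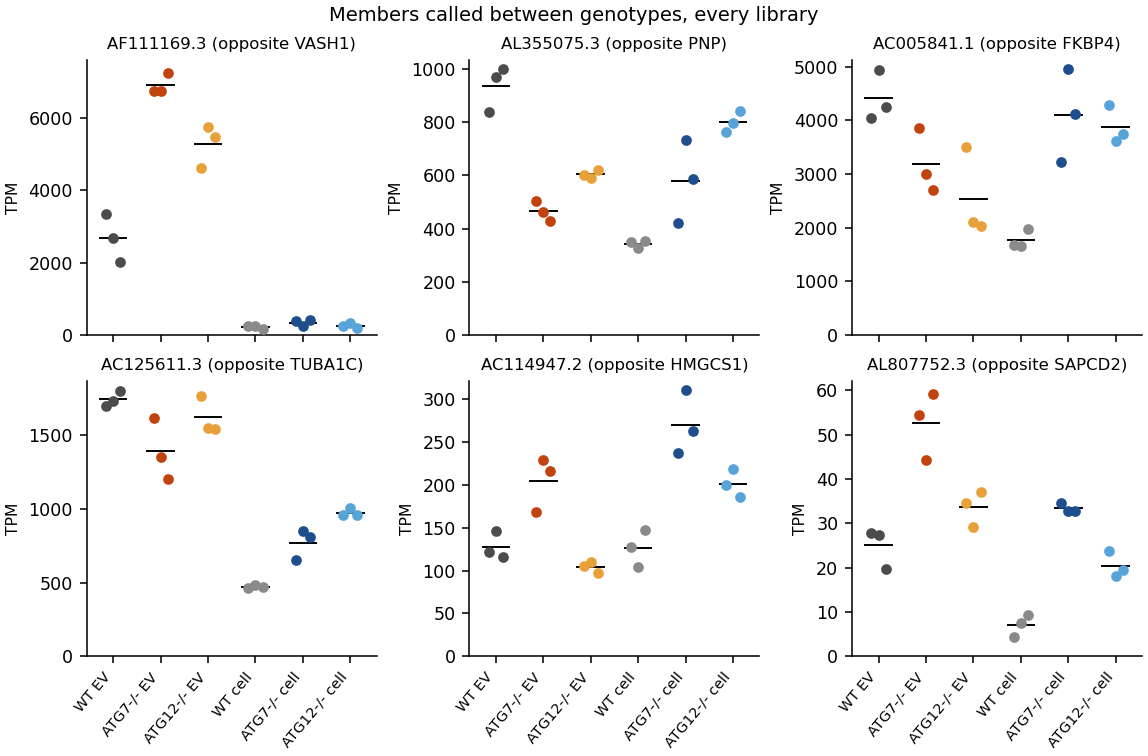
TPM (vertical axis, from 0) of 6 members called in a comparison between genotypes, in each library of the 6 groups (horizontal axis). Points are libraries and bars the mean of 3. AF111169.3 stands highest in ATG7-/- EVs (6731 to 7230 TPM), and AL355075.3 has opposite orders of wild type and knockouts in EVs and in cells.

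As a group the members stood somewhat higher in both knockouts in cells. The median difference was 0.28 in ATG7-/- and 0.23 in ATG12-/- cells, against -0.04 and -0.02 for all transcripts, and 65.2% and 64.3% of members lay above 0, against 47.3% and 48.8% of all. At an unadjusted p under 0.05, 110 members were higher and 20 lower in ATG7-/- cells (19.4% and 3.53%, against 5.85% and 5.68% of all) and 111 higher and 15 lower in ATG12-/- cells (19.6% and 2.65%, against 6.79% and 5.02%). Both comparisons share the wild-type cell libraries. The summed share of the members, given above, was likewise lower in the 3 wild-type cell libraries than in any of the 6 knockout ones. Coding transcripts of the same level moved with this: among transcripts of at least 10 TPM the median was 0.33 for members in either knockout, and 0.25 and 0.47 for transcripts of coding genes, while noncoding transcripts without overlap had -0.25 in both. Noncoding transcripts with 50 to 80% of bases opposite had 0.30 and 0.29, with 66 of 236 higher at an unadjusted p under 0.05 in each knockout, against 100 and 104 of 382 members at this level, and those with 20 to 50% had 0.23 and 0.25. These neighbouring classes thus lay near the members. Their part in the members' shift was not tested. With TPM as deposited the members' medians were 0.18 and 0.15 and those of all transcripts -0.10 and -0.07.

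Whether the EV-to-cell difference itself differed between genotypes was tested as an interaction. In ATG7-/- against wild type 1 of 579 members was called, lower, where 0.309% of all transcripts were called (0.095% lower), and in ATG12-/- 2 were called, both lower, where 0.295% were (0.129% lower). AL355075.3 (chr14:20474789-20477089, minus strand, 492 nt in 2 exons), a lincRNA of which part of the second exon is shown above, was called in both. It lies opposite PNP, the purine nucleoside phosphorylase gene. In EVs it had 837, 969 and 999.8 TPM in wild type, 503, 463 and 428 in ATG7-/- and 599.8, 591 and 621 in ATG12-/-. In cells it had 349.5, 327 and 353 TPM in wild type, 421, 734 and 586 in ATG7-/- and 764, 796 and 842 in ATG12-/-. Both knockouts lay below wild type in EVs and above it in cells, with no overlap, and the change in the EV-to-cell difference was log2 difference -1.48, SE 0.25, adjusted p = 0.0134 in ATG7-/- and log2 difference -1.49, SE 0.25, adjusted p = 0.0159 in ATG12-/-. The call in ATG7-/- held with each library left out in turn, and that in ATG12-/- was lost without replicate 3 of ATG12-/- cells. PNP had at most 21.1 TPM in any library. Its ranges overlapped in EVs, and in cells it had 3.67, 5.63 and 5.70 TPM in wild type, 2.12, 15.4 and 5.26 in ATG7-/- and 7.29, 10.5 and 9.10 in ATG12-/-, where the last lay above wild type without overlap.

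AC005841.1, opposite FKBP4, was the other member called in ATG12-/-. In EVs it had 4046, 4934 and 4255 TPM in wild type and 3497, 2099 and 2037 in ATG12-/-, and in cells 1669.5, 1653 and 1982 and 4294, 3619 and 3740.1, so that ATG12-/- lay below wild type in EVs and above it in cells without overlap (log2 difference -1.62, SE 0.29, adjusted p = 0.0257). In ATG7-/- it did not pass (log2 difference -1.43, SE 0.29, adjusted p = 0.051). The call was lost without any single library of wild-type or ATG12-/- cells, without replicate 2 of wild-type EVs and without replicate 2 of ATG12-/- EVs. For all members the median interaction was 0.26 in ATG7-/- and 0.18 in ATG12-/-, and for all transcripts 0.18 and 0.12. With TPM as deposited these medians were 0.08 and -0.12 for members and 0.06 and -0.04 for all, so the sign of the ATG12-/- median depends on the scaling.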

How the data were processed

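The authors deposited 1 table of TPM for 203027 transcripts in 18 libraries, and Salmon 0.14 and DESeq2 appear in the submitters' processing notes without a role. Annotation, build and strand setting of these TPM are not given in the sources used, and TPM keep no depth, so no counting interval was possible. For this table, 202941 rows were matched by identifier to GENCODE 29 (GRCh38), whose exons gave the overlaps and coordinates, and whose transcripts gave the sequences and the 50-nt windows (Python 3.11.15, pandas 2.3.3).

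Scaling used the median ratio of each library to the geometric mean over libraries. Rows with at least 1 TPM in at least 3 fitted libraries were tested on log2(scaled TPM + 1) in limma (version 3.58.1, R 4.3.3) with a trend of variance on level, a pseudocount of 1, both-sided tests and Benjamini-Hochberg adjustment over all rows tested (threshold 0.05). Genotypes were compared in fits of the 9 EV or the 9 cell libraries, and all 18 entered the EV-to-cell and interaction tests, fitted without the replicate number. The fit was first tested on simulated data. The labels call the 3 libraries of a group biological replicates. Whether replicate numbers pair EV and cell libraries is not known.

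The members and lists were chosen with earlier results of these data known. Members were named by a rule: the 12 most abundant (1 per gene), in each comparison up to 6 in each direction with the largest difference among those called with at least 5 TPM in the higher group, otherwise the 2 with the smallest p, and the 6 most abundant with a curated antisense symbol. One member that this rule picks is not reported here. PSMD6-AS1 and AC010132.2 were named after their values were seen. Alternatives were the TPM as deposited, a pseudocount of 0.1, no filter, a filter of 5 TPM, no trend with array weights, a replicate block, gene sums, other overlap rules and leaving out each library.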

Additional observations from a re-analysis of the deposited data

Results flagged for a closer look

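The EV-to-cell difference of 2 members differed between a knockout and wild type by limma's interaction test. AL355075.3, opposite PNP, was lower in EVs relative to cells by -1.48 on the log2 scale in ATG7-/- (adjusted p = 0.0134) and by -1.49 in ATG12-/- (adjusted p = 0.0159) than in wild type. AC005841.1, opposite FKBP4, had an interaction of -1.62 in ATG12-/- (adjusted p = 0.0257). In both members the knockout libraries concerned lay below wild type in EVs and above it in cells. Both interactions share the wild-type libraries. With EV and cell libraries of the same number taken as culture pairs, a fit added after seeing the data, no member was called in either.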

How the results depend on the processing

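The 231 members called between EVs and cells stayed within 1.5 times that count under every alternative run, and numbered 205 to 231 with single libraries left out. The few calls between genotypes did not hold in this way. In ATG7-/- EVs (1 member called) there were 2 with a pseudocount of 0.1, 0 without the filter, 0 without the trend and with array weights, and 0 to 1 with single libraries left out. In ATG12-/- EVs (0) there were 0 to 0 with single libraries left out. In ATG7-/- cells (5) there were 3 with TPM as deposited, 8 with a pseudocount of 0.1, 1 without the filter, 2 without the trend, and 0 to 6 with single libraries left out. In ATG12-/- cells (1) there were 0 without the filter, 2 with the filter at 5 TPM, 0 without the trend, 0 among members with no shared window (a choice made after seeing the data), and 0 to 1 with single libraries left out. In the interaction for ATG7-/- (1) there were 3 with TPM as deposited, 2 with a pseudocount of 0.1, 0 without the filter, 0 without the trend, 2 with gene sums, 0 where overlap was read from exons of protein_coding transcripts only, and 1 to 3 with single libraries left out. In that for ATG12-/- (2) there were 4, 2, 0, 0, 2 and 1 under these settings, and 0 to 5 with single libraries left out. Without the filter more transcripts were tested, and for the other settings the cause was not tested.

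With the replicate number as a block, 0 members were called in ATG7-/- EVs, 0 in ATG7-/- cells and 0 in ATG12-/- cells, and 1 in the ATG12-/- interaction. Same-numbered EV and cell libraries deviated together with correlations of 0.00104 to 0.0185 (9 pairs, none above 0.1). Of the 9 EV libraries, 7 correlated best with the cell library of their own number. Correlations this weak cannot settle whether the numbers pair the libraries. With each EV and cell library of 1 number as a culture pair, added after seeing the data, the replicate block gave 0 calls in both interactions.

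Members held 4.49% of EV TPM and 4.09% of cell TPM on average, and 3.94% and 3.38% where only exons of protein_coding transcripts counted (589 members). Signs between EVs and cells reversed in 3 members near 0: AC005841.1 (0.10 with TPM as deposited, -0.10 to 0.039 with single libraries left out), AC027682.3 (-0.079 without the trend, -0.11 with gene sums, -0.34 to 0.41 with single libraries left out) and AC018761.2 (-0.0140, -0.14 and -0.087 to 0.15 under the same settings). Over single members and settings 832 of 927 values kept direction and side of the threshold, 72 lost the threshold, 3 gained it and 20 reversed. Most of the 927 were EV-to-cell differences, among which no call was lost, and they include members given here without a test. All 72 losses fell among the genotype and interaction values, so the pooled count does not describe how those calls held.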
